A study of Mus musculus with 16 samples.

Results

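Translation initiation and elongation factors are the proteins that bring a ribosome to the start of a messenger RNA and carry it along the message. The cap-binding complex eIF4F recruits the small ribosomal subunit together with eIF3 and eIF2, which brings the initiator tRNA, and the factors of the eIF1, eIF5 and eIF6 classes govern start codon choice and the joining of the large subunit. Phosphorylation of eIF2 by its kinases blocks the exchange factor eIF2B, which lowers general protein synthesis under stress, and elongation then runs on eEF1 and eEF2. The genes were taken from the platform annotation as those on a probe set with a single gene symbol starting in Eif followed by a digit from 1 to 6, or in Eef followed by 1 or 2, without the sex-linked pair Eif2s3x and Eif2s3y. The rule gave 50 of 12393 annotated genes, on 114 of 22690 probe sets (sets of short probes for one transcript). Each gene was read from its probe set of highest mean intensity across the 16 arrays, and 49 of the 50 genes passed the filter on dim values. Eef2kmt, which encodes a methyltransferase of eEF2, did not pass and was not tested. Of the 50 genes, 29 had several probe sets, and 7 were represented by a probe set whose identifier marks possible cross-hybridisation.

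The RNA came from mouse embryonic stem (ES) cells of mixed 129/C56Bl/6 strain, of genotype unr +/+ (here WT) or unr -/- (here KO). The gene unr encodes an RNA-binding protein that acts in translation and mRNA stability. Cell lines had been derived from single blastocysts of a cross between heterozygotes, and all cells were grown in LIF on a layer of mouse embryonic fibroblasts arrested with mitomycin, which was reduced by plating on gelatin before lysis. In each genotype, growing cells were measured on 3 arrays, cells at 2 h on 3 after gamma irradiation at 8 Gy, and cells at 24 h on 2 after gamma irradiation for which no dose is given in the sources used here. Whether samples of a group came from separate cultures or lines is not given in the labels, and the p-values refer to the spread between these samples alone, which may be technical. No unirradiated cells kept for 24 h were analysed here, so irradiation and time in culture cannot be told apart.

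Values are deposited intensities in scaled units, and the trimmed mean was 100 on each of the 16 arrays. A change is therefore relative to the other transcripts of the array. Differences are on the scale of log2(intensity + 16) with standard errors from limma, and a gene was called where its p-value, adjusted by Benjamini-Hochberg over all 17736 probe sets tested, was under 0.05. Intensities of different probe sets are not compared with each other. The ES cell pluripotency factors Pou5f1 and Sox2 were present on all 16 arrays, at 873 to 1625 and 567 to 901. The 17 measured fibroblast markers summed to 2156 to 5502, and none of their collagen transcripts was at 0 (Col1a1 lay between 15.2 and 198). The 18S ribosomal RNA control was high on WT growing replicate 1 (976) and KO 2 h replicate 2 (2942). In bulk RNA, fewer cells of a type and less RNA per cell cannot be told apart. The level of unr itself is not reported here, and genotype labels were taken as given.

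Most calls among the translation factors were made 24 h after irradiation. Taken as the mean of both genotypes, 9 of the 49 tested genes fell and 2 rose. Over all 10241 genes tested, 22.4% were called in this comparison, 14.2% higher and 8.24% lower. Of the translation factors 22.4% were called, 4.08% higher and 18.4% lower. Their median difference was -0.13, against 0.08 over all genes, and 33 of 49 had a negative value. The genes that fell were Eif6, Eef1akmt1, Eif4e2, Eef1d, Eif2b4, Eif4e, Eif3b, Eif2b5 and Eif5, and those that rose were the eIF2 kinases Eif2ak3 and Eif2ak2. At an unadjusted p under 0.05, 23 of 49 would have been counted, beside 3579 of all 10241 genes.

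**Figure D1:**
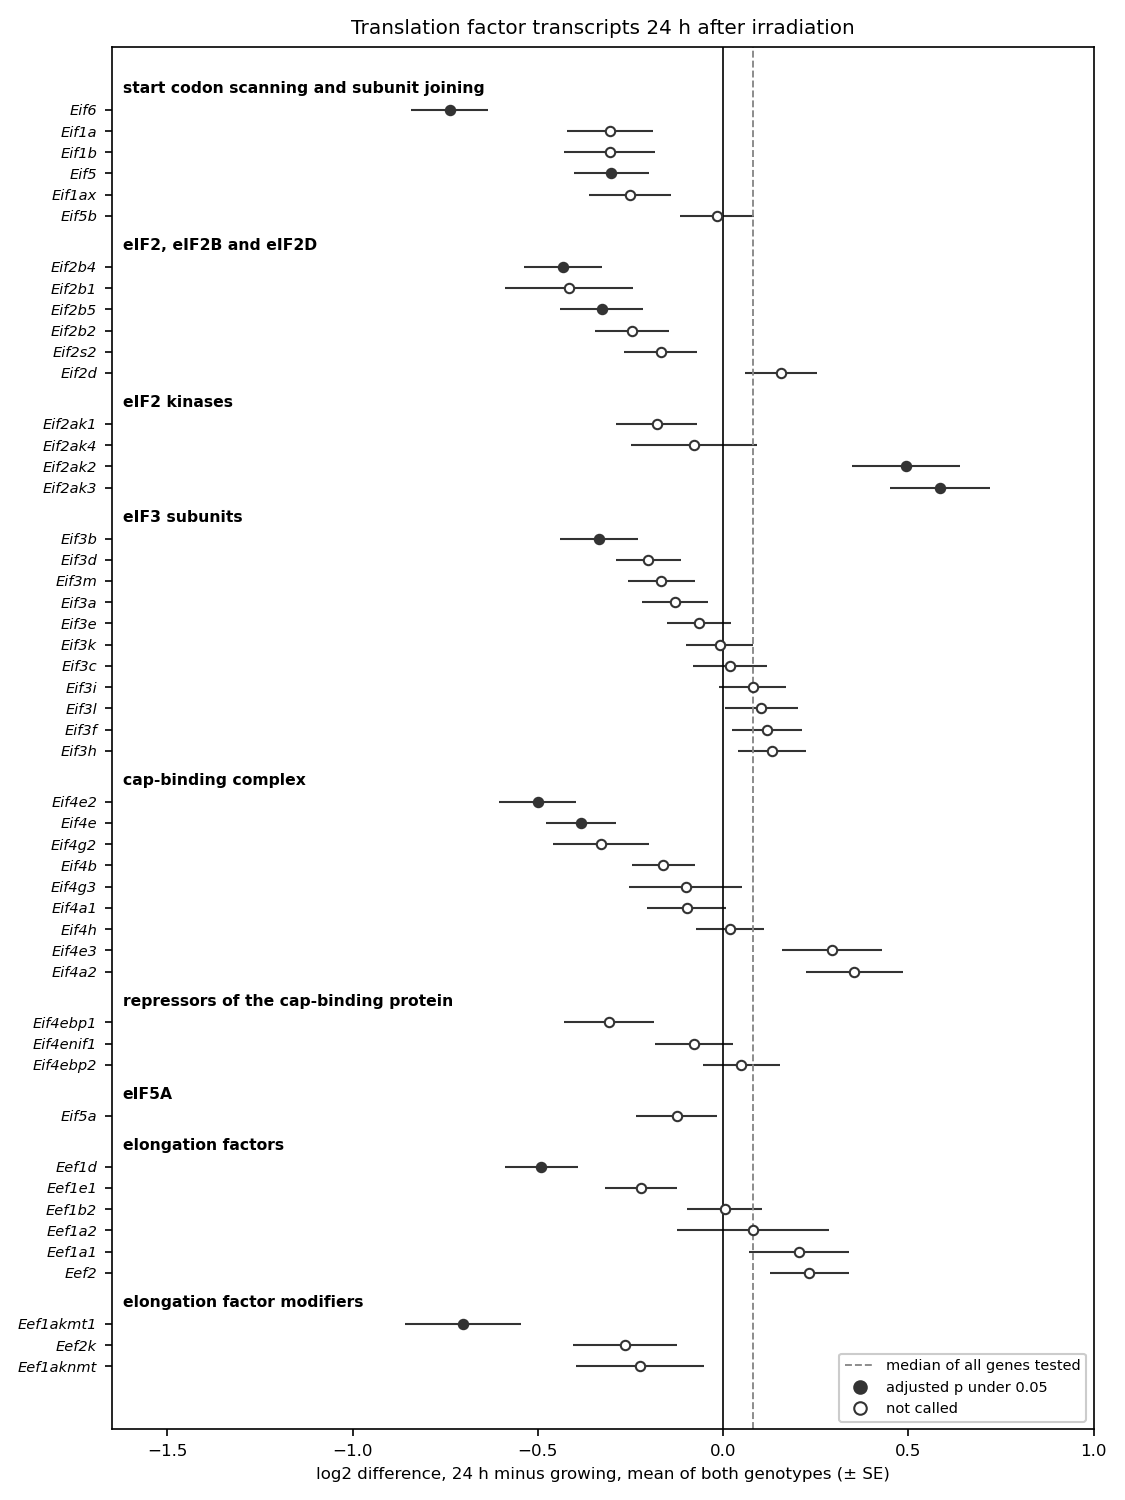
Difference between cells at 24 h and growing cells, as the mean of both genotypes, for the 49 tested translation factor genes grouped by role; points are log2 differences and bars ± SE, filled points have an adjusted p under 0.05, and the dashed line is the median of all genes tested (0.08). Filled points lie from -0.74 (Eif6) to -0.30 (Eif5) on the left, and on the right are 2 eIF2 kinases at 0.49 and 0.58.

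Within single genotypes the counts were smaller. In WT 3 of 49 genes fell and none rose (Eif6, Eif2b4 and Eif4e2), beside 9.46% of all genes called. There 16 of 49 had an unadjusted p under 0.05, beside 2480 of all 10241 genes. In KO 3 of 49 fell and none rose (Eif6, Eef1d and Eif4e2), beside 8.84% of all genes called. There 11 of 49 had an unadjusted p under 0.05, beside 2658 of all 10241 genes. The WT count fell to 1 without WT growing replicate 1 and to 0 without WT 24 h replicate 1. The KO count was 0 without KO 24 h replicate 1 and 5 without WT growing replicate 3. Set side by side, 28 genes were negative in both genotypes, 11 positive in both and 10 opposite. Such counts over all genes are not given here. Across these 49 genes, which are not independent replicates, the responses at 24 h in WT and KO had a Pearson correlation of 0.78, and over all 10241 genes it was 0.67. These responses do not share arrays. The correlation is given as a description.

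**Figure D2:**
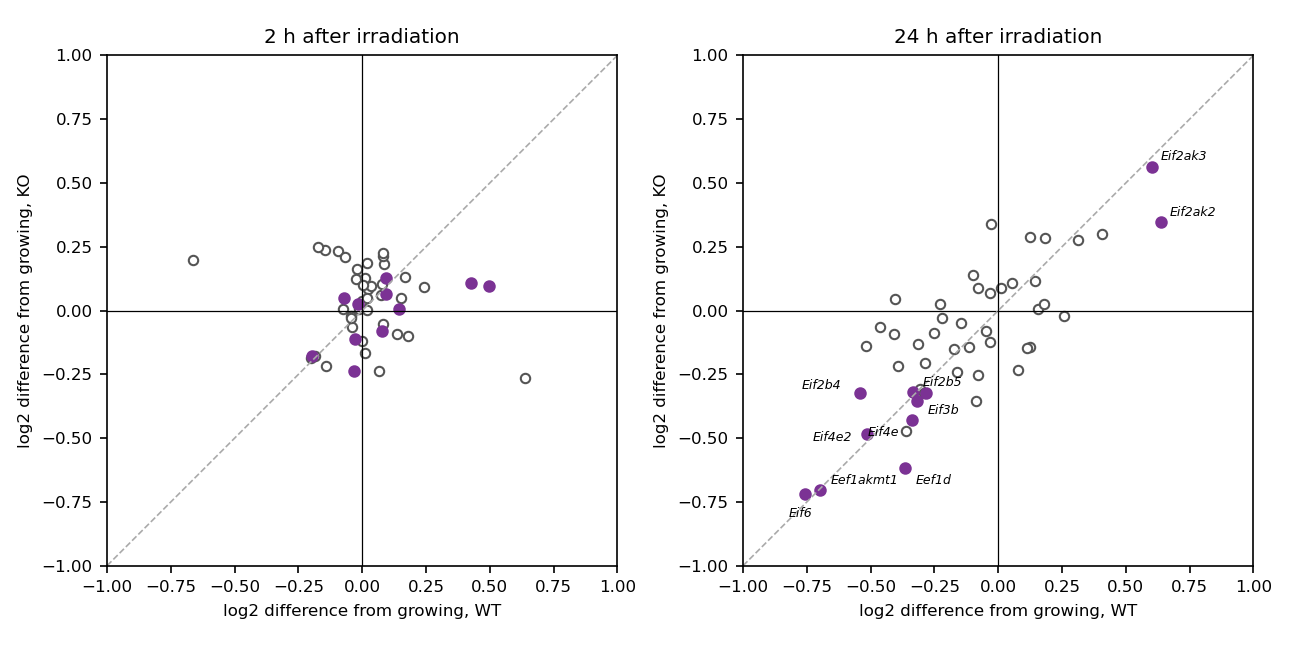
Log2 difference from growing cells in WT (horizontal axis) and KO (vertical axis) for the 49 tested genes, at 2 h (left) and 24 h (right); filled points are the 11 genes called at 24 h in the mean of both genotypes, of which 10 are named, and the dashed line marks equal differences. At 24 h the points stretch along the line (r = 0.78), from Eif6 at the lower left to Eif2ak3 at the upper right, and at 2 h they do not (r = -0.10).

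Some cell type markers were also called at 24 h, given here for the mean of both genotypes. Of all genes 22.4% were called in that comparison, beside 20.0% of the pluripotency and 21.4% of the primitive endoderm markers. Of 10 pluripotency markers, Pou5f1 (-0.48 ± 0.10) and Utf1 (-0.73 ± 0.16) fell and none rose. Of 14 primitive endoderm markers, Lamb1 (0.93 ± 0.11), Cubn (0.61 ± 0.16) and Sparc (0.60 ± 0.15) rose and none fell, and their sum went from 1026 to 1539 in WT growing cells to 1766 and 2270 at 24 h, and from 1734 to 1799 to 2662 and 2174 in KO. None of the 17 fibroblast markers was called by limma in that mean (median 0.26, 16 positive, 2 with an unadjusted p under 0.05), and in WT alone Fn1, which encodes fibronectin, rose (0.52 ± 0.15, adjusted p = 0.0410). The fibroblast sum was 2156 to 5502 in WT growing cells and 4093 and 3851 at 24 h. In KO it was 2925 to 4190 in growing cells and 3652 and 4533 at 24 h, so that KO 24 h replicate 2 lay above every KO growing array. The part of these in the changes of translation factors was not tested. All arrays numbered replicate 3 were hybridised on a second day, and no 24 h sample was among them. Comparisons at 24 h could be made within 1 hybridisation run for 1 pair of arrays in each genotype. All 11 called genes kept the sign of their change in both pairs. These arrays also gave the calls, and where the groups did not overlap the sign was fixed, so this is no independent check.

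Proximal promoter sequences are shown for some of the genes that moved at 24 h or differed between genotypes. The start regions of these falling and rising factors can be read side by side. They are from RefSeq on build GRCm38.p6 and run from 70 bases before to 30 after the annotated start, which counts as position 1. Capitals mark a match on the printed strand to CCGGAAG, the core bound by ETS factors, or to the interferon-stimulated response element, here GAAA and GAAA with 2 free bases between them. Of the 50 genes, 40 had a promoter entry. The first sequence is that of Eif2b4 (chr5:31193110-31193209, minus strand), with the ETS core at position 2, and the next that of Eif4e2 (chr1:87213841-87213940, plus strand), with the core at position 6, from the farthest upstream of its 3 annotated starts. Eif2b5 (chr16:20498747-20498846, plus strand) also fell and has neither motif. Those of the kinases follow, Eif2ak2 (chr17:78882543-78882642, minus strand), with the interferon element at position 19, and Eif2ak3 (chr6:70844445-70844544, plus strand), with neither motif. The last are Eif3m (chr2:105016998-105017097, minus strand), with the ETS core at position -55, and Eif4ebp2 (chr10:61452640-61452739, minus strand), with neither motif in this stretch.
Eif2b4: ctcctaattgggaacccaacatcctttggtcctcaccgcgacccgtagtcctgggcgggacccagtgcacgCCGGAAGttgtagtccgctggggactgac
Eif4e2: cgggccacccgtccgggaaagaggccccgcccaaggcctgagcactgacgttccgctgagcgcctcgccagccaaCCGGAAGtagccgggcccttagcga
Eif2b5: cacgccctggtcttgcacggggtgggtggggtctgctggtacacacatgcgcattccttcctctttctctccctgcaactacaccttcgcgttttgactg
Eif2ak2: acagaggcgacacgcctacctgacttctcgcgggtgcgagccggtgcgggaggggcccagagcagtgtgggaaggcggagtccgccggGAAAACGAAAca
Eif2ak3: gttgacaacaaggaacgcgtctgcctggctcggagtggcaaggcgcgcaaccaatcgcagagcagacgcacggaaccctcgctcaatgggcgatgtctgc
Eif3m: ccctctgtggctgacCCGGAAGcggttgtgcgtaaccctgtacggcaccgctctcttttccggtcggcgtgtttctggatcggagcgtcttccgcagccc
Eif4ebp2: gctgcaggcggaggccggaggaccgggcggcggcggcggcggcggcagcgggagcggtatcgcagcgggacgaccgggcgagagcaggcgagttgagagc
In the full RefSeq windows, 250 bases before to 50 after the start, the ETS core was found on either strand in 14 of 39 tested translation factor genes (35.9%). It was found in 18.7% of 8254 tested genes with a window, and in 8.86% of all 32851 windows. The E-box CACGTG was found in 11 (28.2%), against 11.6% of tested genes and 7.15% of windows. The interferon element was found in 2 (5.13%), Eif2ak2 and Eif3a, against 3.67% and 3.44%, and TATAAA in 3 (7.69%), against 10.2% and 13.6%. The endoplasmic reticulum stress element, here CCAAT and CCACG with 9 free bases between them, was found in 0, against 0.194% and 0.119%. Of the genes that fell at 24 h, Eif2b4, Eif4e2, Eif2b5, Eif4e, Eif3b and Eif5 had a promoter entry. Among these the ETS core was found in Eif2b4 and Eif4e2 alone. Eif4e, Eif3b and Eif5 are not printed above, so the core is more frequent in the printed sequences of fallen genes than among all those with an entry. The other genes with the core, such as Eif3l and Eif2b2, were not called at 24 h on their brightest probe set. A match is a description of these letters and not of binding.

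The counts by role that follow are for the mean of both genotypes, where 14.2% of all genes were called higher and 8.24% lower. No role group was tested against these shares. Among the factors of start codon scanning and subunit joining, 2 of 6 genes fell at 24 h and none rose, and all 6 had negative values (median -0.30). Eif6 encodes the factor that binds the large subunit and keeps it from joining too early. Its intensity was 1118, 1245 and 957 in growing WT cells, 1144, 1076 and 1047 at 2 h, then 616 and 675 at 24 h. In KO it was 1348, 1188 and 1393 in growing cells, 1308, 1283 and 1399 at 2 h, then 661 and 937 at 24 h. The 24 h arrays were the lowest in each genotype and did not overlap with the growing ones. The difference was -0.74 ± 0.11 in the mean of both genotypes (limma adjusted p = 9.34e-05), -0.76 ± 0.15 in WT (adjusted p = 0.00411) and -0.72 ± 0.15 in KO (adjusted p = 0.00695). The mean call was kept under all 28 alternatives. The WT call was lost without WT 24 h replicate 1 (-0.69, adjusted p = 0.0734) and the KO call without KO 24 h replicate 1 (-0.47, adjusted p = 0.164) or without the second day (-0.67, adjusted p = 0.0520). Within a run the difference was -0.84 for the WT pair and -0.34 for the KO pair. Eif6 has 1 probe set here.

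**Figure D3:**
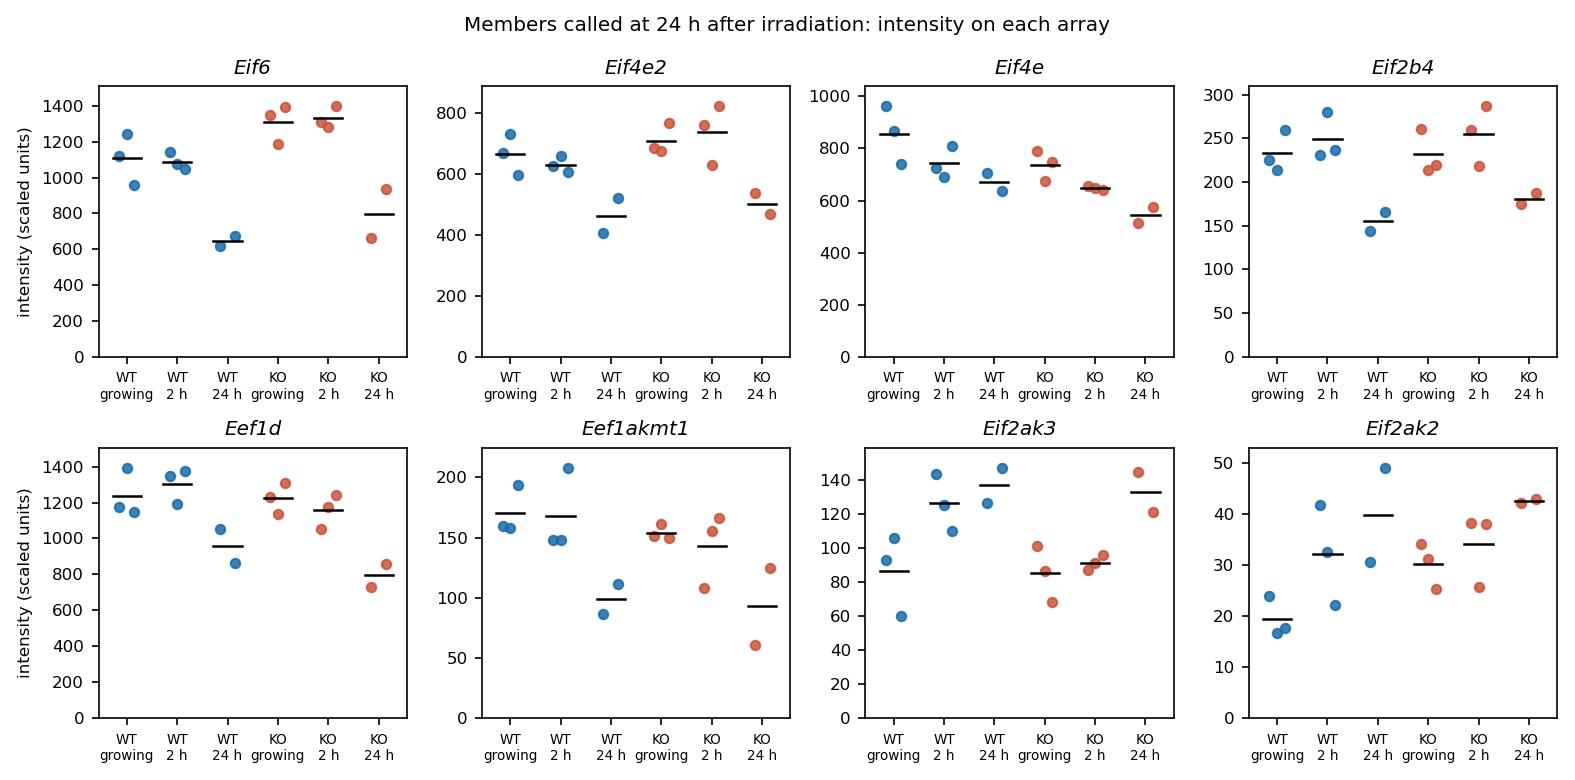
Intensity in scaled units on each of the 16 arrays for 8 of the 11 genes called at 24 h, by genotype (blue WT, red KO) and state; points are arrays and bars group means, and each vertical axis starts at 0. The 24 h arrays lie below growing arrays for Eif6, Eif4e2, Eif2b4, Eef1d and Eef1akmt1, and above them for Eif2ak3, while Eif4e and Eif2ak2 overlap when the genotypes are pooled.

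Eif5 encodes the protein that activates GTP hydrolysis by eIF2 at the start codon. It was at 897, 711 and 897 in WT growing cells and 601 and 769 at 24 h, and at 969.9, 1037 and 1003 in KO growing cells and 859 and 742 at 24 h. The WT groups overlapped and the KO groups did not. The fall of -0.30 ± 0.10 (adjusted p = 0.0402) was lost under 13 of 28 alternatives. Among these were the omission of WT growing replicate 1 or 3, WT 2 h replicate 3, WT 24 h replicate 1, any KO growing replicate or KO 24 h replicate 2, with values of -0.31 to -0.22. The 3 other probe sets of Eif5 gave -0.15 to 0.04, none called, so the fall rested on 1 probe set. Eif1a and Eif1ax, both encoding the scanning factor eIF1A, had values of -0.31 ± 0.12 (adjusted p = 0.0684) and -0.25 ± 0.11 (adjusted p = 0.115). Eif1b, which is related to the start codon selection factor eIF1, was at 105 and 105 in WT and 114 and 113 in KO at 24 h, below all growing arrays (117, 133 and 153 in WT, 150.0, 133 and 149 in KO), but was not called (-0.31 ± 0.12, adjusted p = 0.0843). Eif5b, the GTPase of subunit joining, had a value of -0.02 ± 0.10.

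Of the 6 genes for eIF2, its exchange factor eIF2B and the tRNA-delivering factor eIF2D, 2 fell at 24 h and none rose. Both encode eIF2B subunits. Eif2b4 encodes the delta subunit and was at 225, 214 and 259.9 in WT growing cells, 231, 280.3 and 237 at 2 h, then 144 and 166 at 24 h. The KO arrays gave 261, 214 and 220.2 in growing cells, 259.8, 218 and 287 at 2 h, then 175 and 188 at 24 h. All 4 arrays at 24 h lay below every growing and 2 h array. The difference was -0.43 ± 0.10 (adjusted p = 0.00641), kept under all 28 alternatives. In WT alone it was -0.54 ± 0.15 (adjusted p = 0.0288), a call lost without WT growing replicate 1 or 3 or WT 24 h replicate 1, at -0.56 to -0.45. It was lost under 6 of 28 alternatives in all, among them the fit blocked by run (-0.49, adjusted p = 0.0716) and omission of the second day (-0.46, adjusted p = 0.149). Eif2b5 encodes the catalytic epsilon subunit. It was at 309, 393 and 329.8 against 266 and 270.1 in WT and at 397, 374 and 407 against 268 and 361 in KO, with overlap when the genotypes are pooled. Its fall of -0.33 ± 0.11 (adjusted p = 0.0444) was lost under 18 of 28 alternatives, 11 of them the omission of 1 array, and also when the run entered as a block (-0.31, adjusted p = 0.0869). It was kept without WT growing replicate 1, without any KO 2 h replicate or without KO 24 h replicate 2, and the values that lost the call by omission were -0.34 to -0.23. The other eIF2B genes, Eif2b1 (alpha subunit, -0.42 ± 0.17) and Eif2b2 (beta subunit, -0.25 ± 0.10), were negative without passing the test (adjusted p = 0.0977 and 0.0895). For Eif2b1 the KO 24 h arrays stood apart from each other at 186 and 439. Eif2s2, the beta subunit of eIF2, had a value of -0.17 ± 0.10, and Eif2d of 0.16 ± 0.10.

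Of the 4 genes for eIF2 kinases, 2 rose at 24 h and none fell. Eif2ak3 encodes PERK, the kinase that senses unfolded protein in the endoplasmic reticulum. It was at 93.1, 106 and 59.9 in WT growing cells, 143, 125 and 110.2 at 2 h, then 126 and 147 at 24 h. In KO it was at 101, 86.5 and 68.2 in growing cells, 87.2, 90.9 and 95.7 at 2 h, then 145 and 121 at 24 h. The 24 h arrays were above all growing arrays. The rise was 0.58 ± 0.13 (adjusted p = 0.00459), kept under all 28 alternatives, and the pairs within a run gave 0.38 and 0.42. In WT every 2 h array was also above the growing arrays (0.50 ± 0.17), which was not called (adjusted p = 0.471). The KO value at 2 h was 0.10 ± 0.17, and the difference between the genotypes' responses, -0.40 ± 0.24, was not called (adjusted p = 0.606). The 2 other Eif2ak3 probe sets were too dim to be tested.

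Eif2ak2 encodes PKR, the kinase activated by double-stranded RNA and induced by interferon. It was dim, at 24.1, 16.8 and 17.7 in WT growing cells and 30.6 and 49.1 at 24 h, and at 34.2, 31.2 and 25.3 in KO growing cells and 42.1 and 43.1 at 24 h. Within each genotype the 24 h arrays were above the growing ones, and across genotypes they overlapped. The rise was 0.49 ± 0.15 (adjusted p = 0.0215), and the other probe set of the gene gave 0.09. The call was lost under 7 of 28 alternatives, including the omission of WT 24 h replicate 2, KO growing replicate 3 or either KO 24 h replicate, at 0.37 to 0.50. It was also lost when the run entered as a block (0.46, adjusted p = 0.0558), under quantile normalization (0.36, adjusted p = 0.0906) and without the second day (0.44, adjusted p = 0.0798). The haem-regulated kinase Eif2ak1 (-0.18 ± 0.11, adjusted p = 0.27) and the amino acid sensor Eif2ak4 (-0.08 ± 0.17, adjusted p = 0.788) were not called. For Eif2ak1 the 24 h difference was -0.41 ± 0.16 in WT and 0.05 ± 0.16 in KO, and the interaction was not called (0.45 ± 0.22, adjusted p = 0.996).

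Of 11 eIF3 subunit genes, which encode the scaffold between the small subunit and eIF4F, 1 fell at 24 h and none rose, and their median was -0.01. Eif3b, a core subunit, was at 767, 663 and 844 in WT growing cells and 515 and 705 at 24 h. In KO it was at 820.5, 932 and 845 in growing cells and 657 and 688 at 24 h. WT 24 h replicate 2 lay inside the range of WT growing cells, and the KO groups did not overlap. The fall of -0.34 ± 0.11 (adjusted p = 0.0287) was lost under 9 of 28 alternatives, including the omission of WT growing replicate 3, WT 24 h replicate 1, KO growing replicate 2 or KO 24 h replicate 1, at -0.32 to -0.23. The other 10 ranged from -0.20 (Eif3d, a cap-contacting subunit) to 0.13 (Eif3h), with Eif3a, a core subunit, at -0.13, Eif3e at -0.06 and Eif3f at 0.12. None of these 10 was called.

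Of the 9 genes of the cap-binding complex, 2 fell at 24 h and none rose. Both encode cap-binding proteins. Eif4e2 encodes a cap-binding relative of eIF4E that represses translation together with Gigyf2. It was at 669.8, 733 and 597 in WT growing cells, 626, 659 and 608 at 2 h, then 406 and 521 at 24 h. The KO arrays gave 685, 675 and 769.6 in growing cells, 760.5, 629 and 824 at 2 h, then 537 and 468 at 24 h. The 24 h arrays were below all 12 others. The difference was -0.50 ± 0.10 (adjusted p = 0.00203), kept under all 28 alternatives, and the 3 other probe sets gave -0.45, -0.13 and -0.08, the first of them called. In WT it was -0.52 ± 0.15 (adjusted p = 0.0333), lost without WT growing replicate 1 or 2 or WT 24 h replicate 1 (-0.51 to -0.34). The WT call was lost under 9 of 28 alternatives in all, among them the fit blocked by run (-0.43, adjusted p = 0.0858). In KO it was -0.49 ± 0.15 (adjusted p = 0.0473), lost under 16 alternatives, 10 of them the omission of 1 array (-0.58 to -0.39). The KO call was kept without WT growing replicate 2 or 3, either WT 24 h replicate, or KO 2 h replicate 2 or 3. Gigyf2 rose at 24 h (0.59 ± 0.18, adjusted p = 0.0274).

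Eif4e encodes the cap-binding subunit of eIF4F. It was at 963, 866 and 742 in WT growing cells, 725, 692 and 811 at 2 h, then 707 and 635 at 24 h. KO values were 791, 674 and 748 in growing cells, 655, 649.7 and 641 at 2 h, then 513 and 575 at 24 h. Within each genotype the 24 h arrays were below the growing ones, and the WT 24 h arrays overlapped with KO growing cells. The fall was -0.38 ± 0.09 (adjusted p = 0.0068), kept under all 28 alternatives. Another probe set gave -0.37 and was called, and the last gave 0.21 and was not. The helicase gene Eif4a1 had a value of -0.10 ± 0.11 and its paralogue Eif4a2 of 0.35 ± 0.13 (adjusted p = 0.0637). Eif4a2 was high on replicate 1 of both genotypes at 24 h (1645 and 1149.7 in WT, 1626 and 1009 in KO). The helicase cofactors Eif4b (-0.16 ± 0.09) and Eif4h (0.02 ± 0.09) and the scaffold Eif4g3 (-0.10 ± 0.15) were not called. Neither were Eif4e3, another eIF4E relative (0.29 ± 0.13), and Eif4g2, a scaffold that lacks the eIF4E contact (-0.33 ± 0.13, adjusted p = 0.0807).

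None of the 3 repressor genes of eIF4E was called at 24 h by limma. Eif4ebp1 had a value of -0.31 ± 0.12 (adjusted p = 0.0798), Eif4ebp2 of 0.05 ± 0.10 and Eif4enif1, which carries eIF4E to the nucleus and to RNA granules, of -0.08 ± 0.10. Of these 3, only Eif4ebp1 had an unadjusted p under 0.05. Eif5a, which carries the residue hypusine and helps peptide bond formation, had a value of -0.13 ± 0.11.

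Of 6 elongation factor genes, 1 fell at 24 h and none rose. Eef1d encodes an exchange subunit of eEF1. It was at 1175, 1394 and 1145 in WT growing cells, 1349, 1189 and 1373 at 2 h, then 1052 and 865 at 24 h. KO values were 1229, 1137 and 1307 in growing cells, 1054, 1175 and 1244 at 2 h, then 731 and 858 at 24 h. The 24 h arrays were the lowest in each genotype. The fall was -0.49 ± 0.10 (adjusted p = 0.00166), kept under all 28 alternatives, and the 2 other probe sets also fell (-0.87 and -0.49). In KO it was -0.62 ± 0.14 (adjusted p = 0.0116), a call lost without KO 24 h replicate 1 (-0.50, adjusted p = 0.158) or without the second day (-0.57, adjusted p = 0.0798). In WT it was -0.37 ± 0.14 and was not called (adjusted p = 0.115), and the difference between genotypes was not called either (-0.25 ± 0.20, adjusted p = 0.996). Eef1a1, which delivers aminoacyl-tRNA to the ribosome, had a value of 0.21 ± 0.13 and Eef2, which moves the ribosome along, of 0.23 ± 0.11, neither called (adjusted p = 0.307 and 0.136). The exchange subunit Eef1b2 had 0.00 ± 0.10, the eEF1A paralogue Eef1a2 0.08 ± 0.21, and Eef1e1, a partner of the tRNA synthetase complex, -0.22 ± 0.10.

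Of 3 tested modifiers of elongation factors, 1 fell at 24 h. Eef1akmt1 encodes a lysine methyltransferase of eEF1A. It was at 159, 158 and 194 in WT growing cells and 86.3 and 112 at 24 h, and at 152, 161 and 149.5 in KO growing cells and 61.2 and 125 at 24 h. The 24 h and growing groups did not overlap, and KO 24 h replicate 1 was the lowest array. At 2 h, KO replicate 1 (108) lay below replicate 2 of both genotypes at 24 h, so the 24 h arrays were not separate from the 2 h ones. The fall was -0.70 ± 0.16 (adjusted p = 0.00364), kept under all 28 alternatives. Its 3 other probe sets gave -0.61 to -0.30, and 2 of them were called, calls lost without WT 24 h replicate 1 or KO 24 h replicate 1. Eef2k, the kinase that inactivates eEF2, had a value of -0.27 ± 0.14 and the methyltransferase gene Eef1aknmt of -0.22 ± 0.17, neither called.

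Taking the brightest probe set of a gene left out further calls at 24 h. Of 104 tested probe sets of these genes, 23 were called (22.1%), beside 21.0% of all probe sets tested. They belonged to 17 genes, and 6 genes were called on another probe set alone, a reading made after the values were seen. Eif5a had a second probe set at 2079.6, 1947 and 1586 in WT growing cells and 1257 and 1411 at 24 h, and at 1894, 1785 and 2255 in KO growing cells and 1358 and 1582 at 24 h, a fall of -0.45 ± 0.11 (adjusted p = 0.00805). The identifier of that set marks possible cross-hybridisation. Eif4g2 had one that fell by 0.47 ± 0.12 (adjusted p = 0.00695), a call lost without WT 24 h replicate 1 (-0.36, adjusted p = 0.0579). Eif4e3 had a dim one, at 6.03, 16.3 and 6.61 in WT growing cells and 27.6 and 37.6 at 24 h, and at 8.85, 11.8 and 3.97 in KO growing cells and 35.01 and 23.8 at 24 h, a rise of 0.92 ± 0.18 (adjusted p = 0.00147). In Eif5a the 24 h and growing arrays did not overlap, and this call was kept under all 27 alternatives run on it. For the Eif4e3 set, all growing and 2 h group means lay under the filter threshold. It was tested through its 24 h groups alone, where it was high. Its arrays did not overlap either and its call was kept under all 27 alternatives, but neither gives support. The remaining 3 genes were Eif4a1 (-0.34 ± 0.10), Eif4ebp1 (-0.32 ± 0.10) and Eif1ax (-0.46 ± 0.16), whose calls were lost under 8, 4 and 13 alternatives.

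At 2 h after irradiation none of the 49 genes was called by limma in WT, in KO or in the mean of both genotypes. Over all genes, 0.156%, 0.127% and 0.469% were called in these comparisons. At an unadjusted p under 0.05, 5 genes were counted in WT, 0 in KO and 4 in the mean. Over all 10241 genes these counts were 865, 889 and 590. The members' median in the mean of both genotypes was 0.04. The values farthest above 0 were those of Eif2ak3 (0.30 ± 0.12), Eif2ak2 (0.27 ± 0.13), Eef1aknmt (0.19 ± 0.16), Eif3d (0.17 ± 0.08) and Eif3c (0.15 ± 0.09). Those farthest below were Eef1a2 (-0.23 ± 0.18), Eef1e1 (-0.19 ± 0.09), Eif4e (-0.19 ± 0.08), Eif4g3 (-0.18 ± 0.14) and Eif1a (-0.18 ± 0.10). The smallest adjusted p among them was 0.741.

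Between KO and WT, the share of translation factors called was near that of all genes. None of the 49 genes was called in growing cells, at 2 h or at 24 h, where limma called 0.264%, 0.439% and 0.0586% of all genes. At an unadjusted p under 0.05, 5, 5 and 6 genes were counted. Over all 10241 genes these counts were 1101, 1621 and 980. In the mean of the 3 states 1 gene was higher and 1 lower in KO (4.08% called), beside 4.45% of all genes called. There 10 of 49 had an unadjusted p under 0.05, beside 2012 of all 10241 genes. The members' median was 0.04, against 0.01 over all genes. In 24 of 49 genes the sign was the same in all 3 states, 15 higher and 9 lower in KO. The same count over all genes is not given here. Markers of primitive endoderm were higher in KO in the same comparison, 6 of 14 called, from Sox7 (0.42 ± 0.12) to Srgn (1.86 ± 0.18). Of 10 pluripotency markers 1 was called, Nanog, which was lower in KO (-0.47 ± 0.10), while 5 of the 10 were positive (median 0.03). None of the 17 fibroblast markers was called by limma there, and 0 had an unadjusted p under 0.05. The part of these in the genotype differences of translation factors was not tested.

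Eif3m, an eIF3 subunit, was lower in KO. It was at 599.9, 571 and 561 in WT and 524, 454 and 503 in KO growing cells. At 2 h it was at 605, 543 and 587 in WT and 488, 494 and 383 in KO, and at 24 h at 549 and 540.1 in WT and 411 and 411 in KO. All 8 KO arrays lay below all 8 WT arrays. The difference was -0.32 ± 0.07 (adjusted p = 0.0165). In the 5 pairs of KO and WT arrays of the same state and run it was -0.60 to -0.15, with the sign given by that separation. The call was kept under 26 of 27 alternatives and lost without the arrays of the second day (adjusted p = 0.114). The identifier of this probe set marks possible cross-hybridisation. The only other probe set of the gene, a dim one with the same kind of mark at a mean of 17.2, gave 0.01 and was not called.

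Eif4ebp2, one of the proteins that hold eIF4E inactive until mTOR phosphorylates them, was higher in KO. It was at 469, 512 and 428 in WT and 551, 598 and 575 in KO growing cells. At 2 h it was at 416, 489 and 459.9 in WT and 593, 635 and 473 in KO, and at 24 h at 415 and 536 in WT and 602 and 622 in KO. Growing and 24 h groups did not overlap, and at 2 h KO replicate 3 lay within WT. The difference was 0.32 ± 0.08 (adjusted p = 0.0332), and the 5 pairs within a run were all positive, from 0.04 to 0.41. Where the groups did not overlap that sign was fixed, so the pairs are no independent check. The 3 other tested probe sets gave 0.31 to 0.46, and none was called. The call on the brightest was lost under 16 of 28 alternatives, 12 of them the omission of 1 array (0.26 to 0.33, adjusted p = 0.0514 to 0.119), and also when the run entered as a block (0.25, adjusted p = 0.0640). It was kept without WT growing replicate 2, WT 2 h replicate 2, WT 24 h replicate 2 or KO 2 h replicate 3.

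**Figure D4:**
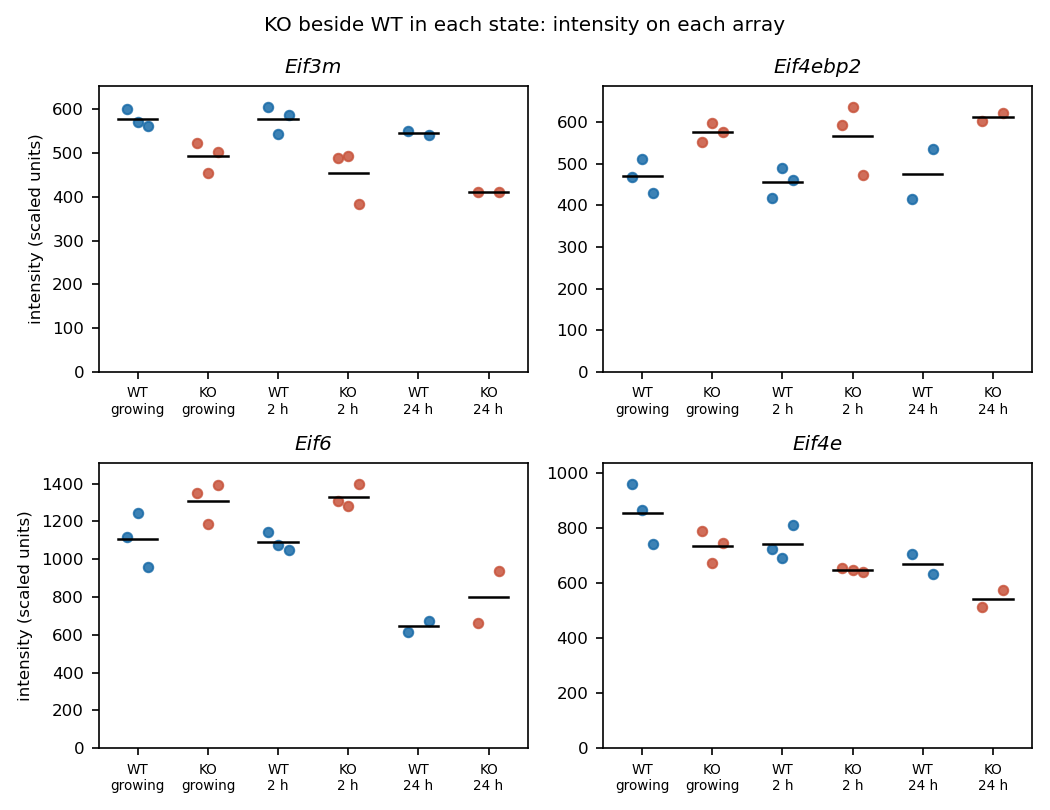
Intensity in scaled units on each array for Eif3m, Eif4ebp2, Eif6 and Eif4e, with WT (blue) and KO (red) side by side in each of the 3 states; points are arrays and bars group means, and axes start at 0. All KO arrays of Eif3m lie below all WT arrays, and KO arrays of Eif4ebp2 lie above the WT arrays of their state except for 1 array at 2 h.

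Eif5 was called on other probe sets alone. Its brightest probe set gave 0.19 ± 0.08 for KO against WT and was not called (adjusted p = 0.214). Another was at 422, 456 and 508 in WT and 694, 693 and 674 in KO growing cells. At 2 h it was at 565, 509 and 525 in WT and 622, 567 and 570.1 in KO, and at 24 h at 463 and 477 in WT and 629 and 581 in KO. All KO arrays were above all WT arrays, a difference of 0.35 ± 0.07 (adjusted p = 0.00523) that was kept under all 27 alternatives run on it. A further one was higher by 0.40 ± 0.08 (adjusted p = 0.0104), a call lost without the second day. The last gave 0.16. In all, 4 of 104 probe sets were called in this comparison (3.85%), beside 4.13% of all probe sets. The Eif5 probe sets were singled out after their values were seen.

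Other genes with the largest differences between genotypes were not called. Higher in KO without passing the test were Eef1aknmt (0.40 ± 0.14, adjusted p = 0.114), Eif6 (0.27 ± 0.08, adjusted p = 0.0748), Eif2d (0.23 ± 0.08, adjusted p = 0.107) and Eif4g3 (0.23 ± 0.12, adjusted p = 0.323). The Eif6 value was positive in all 5 pairs within a run, from 0.27 to 0.53. These pairs reuse the arrays of that difference, and at 2 h the separation of KO from WT fixed their sign, so they are no independent check. With values below 0 were Eef1a2 (-0.29 ± 0.16, adjusted p = 0.356), Eef2k (-0.26 ± 0.11, adjusted p = 0.208), Eif4e (-0.23 ± 0.07, adjusted p = 0.0901) and Eif3h (-0.16 ± 0.07, adjusted p = 0.224). No difference between the genotypes' responses to irradiation was called by limma at 2 h or at 24 h, among the 49 genes or among all genes tested (0%). At an unadjusted p under 0.05 the interaction was counted for 1054 of all 10241 genes at 2 h and 495 at 24 h. Of the 49 genes it was counted for 2 at 2 h and 0 at 24 h. The 2 were Eef1aknmt (-0.91 ± 0.31, adjusted p = 0.338) and Eef1a2 (0.86 ± 0.37, adjusted p = 0.441). Eef1aknmt was at 29.2, 12.02 and 27.2 in WT growing cells and 30.2, 46.2 and 56.02 at 2 h, and at 49.02, 31.3 and 50.8 in KO growing cells and 46.5, 26.2 and 28.8 at 2 h.

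Genes next to these factors in translation were counted by list at 24 h in the mean of both genotypes, where 22.4% of all genes were called, 14.2% higher and 8.24% lower. Of 20 tested genes for cytosolic aminoacyl-tRNA synthetases and their scaffold, which charge tRNAs with amino acids, 15 fell and 1 rose (80.0% called), with a median of -0.47 beside -0.13 for initiation and elongation factors. They ranged from Sars, the seryl enzyme (-0.82 ± 0.12), and Tars, the threonyl enzyme (-0.79 ± 0.09), to Qars, the glutaminyl enzyme, which rose (0.37 ± 0.10). Of 8 termination and recycling genes 3 fell, the release factor Gspt1 (-0.53 ± 0.10), the ribosome recycling ATPase Abce1 (-0.41 ± 0.09) and Denr (-0.37 ± 0.10), and none rose (37.5% called). Of 13 poly(A)-binding and cap regulators 2 fell, the helicase Ddx3x (-0.50 ± 0.10) and Larp1, a repressor of ribosomal protein mRNAs (-0.50 ± 0.09). Beside Gigyf2, Paip2b rose (0.34 ± 0.11), an inhibitor of poly(A)-binding protein, so that 30.8% were called. Of 10 genes of mTOR and S6 kinase signalling, its inhibitors Tsc1 (0.42 ± 0.13) and Tsc2 (0.37 ± 0.13) rose and the ribosomal protein Rps6 fell (-0.53 ± 0.13), 3 of 10 in all. Of 10 genes of the eIF2 phosphatase and its stress outputs 1 fell, Trib3 (-0.48 ± 0.17), and none rose, while Atf4, the factor translated when eIF2 is phosphorylated, was not called (-0.29 ± 0.17, adjusted p = 0.252). Atf4 is named outside the rule for list genes, after its values were seen.

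**Figure D5:**
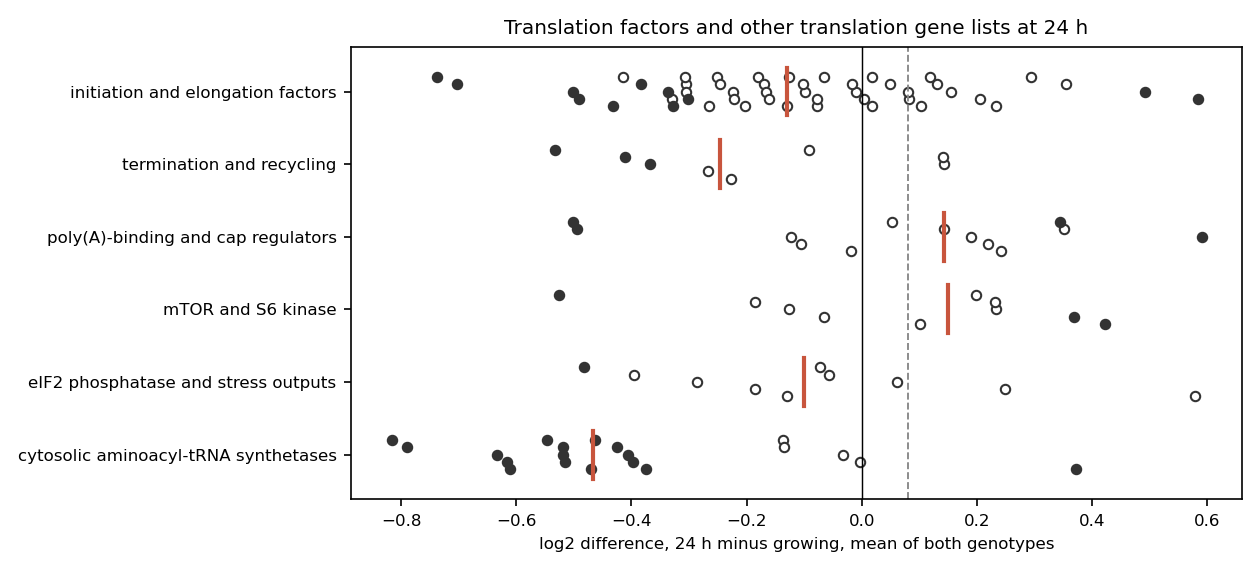
Log2 difference between 24 h and growing cells, as the mean of both genotypes, for the tested genes of each list (rows); each point is a gene, filled where the adjusted p is under 0.05, red bars are list medians, and the dashed line is the median of all genes tested. The synthetases lie farthest to the left (median -0.47), with 15 of 20 filled below 0, and the initiation and elongation factors have a median of -0.13.

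Between the genotypes, in the mean of the 3 states, 5 of 61 genes of these lists were called (8.20%), beside 4.45% of all genes. Higher in KO were Ppp1r15b, a subunit that directs the eIF2 phosphatase (0.42 ± 0.08), its catalytic subunit Ppp1cc (0.27 ± 0.07), Paip2 (0.34 ± 0.08) and Larp1 (0.29 ± 0.07). The histidyl enzyme Hars was lower in KO (-0.37 ± 0.09). No gene of the 5 lists was called at 2 h by limma in the mean of both genotypes. There 2 of 61 had an unadjusted p under 0.05, beside 590 of all 10241 genes.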

How the data were processed

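Each of the 16 samples was hybridised to 1 Affymetrix mouse expression array. What the authors deposited is a linear intensity for every probe set on every array. From the values, arrays share a trimmed mean of 100 and genes are not centred. The summarising software is not given in the sources. Instrument files served only for the hybridisation date and time of each array. From these times the arrays were grouped here into 4 runs over 2 days, a new run starting after a gap in the times. The runs are not labels of the files. Of 22690 probe sets, 64 controls were left out. A probe set was tested where at least 1 group mean exceeded the 30th percentile of all values, an intensity of 11.9.

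Tests used limma 3.58.1 in R 4.3.3 on log2(intensity + 16), in 1 model of 6 group means with eBayes and an intensity trend (10 residual and 8.55 prior degrees of freedom). The added 16 understates changes of dim genes. The 12 comparisons set KO against WT in each state and in their mean, 2 h and 24 h against growing cells in each genotype and in their mean, and the interactions. p-values were two-sided, adjusted over the 17736 probe sets tested. The fitting code was tested on simulated data with known changes, for KO against WT in growing cells alone. By the correlation of deviations from group means, the replicate numbers paired WT growing with WT 2 h samples (0.20, 0.23 and 0.29, each pair also within 1 run), and no other 2 groups of 3 samples had all pairs over 0.1. The number of arrays limits the precision.

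Genes were named where called, where among the 5 largest rises or falls of the mean comparisons, or where on a list of principal factors; other pathway genes were named where called. Members, lists and tests were chosen with earlier results of these data known. Eif4a3, Eef1g and Eif3j, on probe sets with several symbols, and Eif4g1, Eif2s1, Eif1, Eif5a2 and Eif4ebp3 were not analysed here. Gene symbols come from the platform annotation and promoters from RefSeq (GRCm38.p6).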

Additional observations from a re-analysis of the deposited data

How the results depend on the processing

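Under the alternatives run, no called translation factor changed sign. The alternatives were a constant of 1 or 64 before the log, no filter or one at the 50th percentile, quantile normalization, the run or the replicate number as a block, omission of the second day, of the 2 arrays of high 18S signal or of each array in turn, fits on the compared groups alone, no intensity trend, and probe sets without a cross-hybridisation mark. Of 336 counts of called genes under these alternatives, 310 stayed within 1.5 times the main count and 26 moved further. Most of the 12 comparisons had a main count of 0, and staying at 0 was counted as within. The 310 therefore does not measure how stable the calls were. Counts over all probe sets stayed within 1.5 times in 272 cases and moved further in 52. With the filter at the 50th percentile the 24 h count was 5 in WT and 5 in KO. Of 36 correlations between samples of the same replicate number, 21 were over 0.1 (-0.09 to 0.29). With the replicate block the WT count at 24 h was 5, the count was 0 in WT at 2 h, the comparison whose samples were paired, and in no other comparison did it move by over 1.5 times. Without the second day the counts at 24 h were 1 in WT, 0 in KO and 7 in the mean of both genotypes, and that of KO against WT in the mean of states was 0. Fitting the compared groups alone gave 1 for WT at 24 h. The count for KO against WT in the mean of states was 1 when the run was a block, 1 on leaving out the arrays of high 18S signal, 1 without the trend and 1 with probe sets free of a cross-hybridisation mark. Leaving out each array in turn gave 0 to 4 for WT at 24 h, 0 to 5 for KO, 8 to 14 for their mean, 1 to 3 for KO against WT in the mean of states, and 0 for all others. Quantile normalization moved the median of all probe sets at 24 h by -0.12 in KO, -0.05 in WT and -0.09 in the mean. The causes of these changes were not tested. Groups of 2 or 3 arrays limit all calls, and the lone array left at 24 h by an omission was assumed to vary like the other groups.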
